A study of Arabidopsis thaliana with 9 samples.

Results

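The transcripts of Arabidopsis thaliana roots after 24 h of STZ induction were compared with those after 6 h, over every gene with an exon length above 0. The comparison used 6 of the 9 libraries of the series, which were chosen by their labels. It covered 27655 of the 32833 genes listed in the files, and 20272 of these passed the filter on low counts and were tested. All libraries came from 1 line of Col-0 seedlings, p35S::XVE>>pLexA::STZ, line STZ-OE #2 in the T3 generation, 4 to 5 days old at treatment. The 24 h group had 3 libraries from seedlings kept with 20 µM estradiol for 24 h, and the 6 h group had 3 libraries from seedlings kept with 20 µM estradiol for 6 h. A mock group of 3 libraries, kept with ethanol for 24 h, entered the same fit and is given below as the uninduced level. The study's methods place the harvest of all roots at the same seedling age, so estradiol was added later to the 6 h seedlings. There was no 6 h mock and no estradiol treatment of plants without the transgene, so effects of the age at which estradiol was added, of estradiol itself and of STZ cannot be told apart. The XVE activator is driven by the constitutive 35S promoter, so induction was not limited to cells that normally express STZ. The sources give different lengths for the lower root segment that was harvested. The labels call the libraries biological replicates without saying whether the seedlings were sown separately, so the p-values measure the spread between these libraries, part of which may be technical.

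In the XVE system a hybrid transcription activator is held inactive until it binds estradiol, after which it switches on the LexA promoter placed in front of the gene of interest. STZ, also called ZAT10, is a C2H2 zinc finger protein with an EAR motif that represses transcription, and its native gene responds to salt, drought, cold and immune elicitors. The comparison asks which transcripts went on changing, or turned back, between the early and the late time of induction.

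The 6 libraries held 24375822 to 29065172 counted exon reads, and levels are given as CPM, the read count of a gene relative to the size of its library, scaled by edgeR's TMM factors. The first principal component of the 6 libraries held 89.7% of the variance and placed the 24 h libraries at −66.9, −65.0 and −51.6, against 61.0, 60.9 and 61.6 for the 6 h libraries. Replicate 3 of the 24 h group lay nearest to the 6 h libraries and also had the least STZ. The 26 genes of the photosynthesis list were taken as markers of green shoot tissue. Their summed level was 180 to 207 CPM at 24 h and 209.8 to 242 CPM at 6 h, with 519 to 550 CPM in mock. Of the 20 of them that were tested, 1 was called higher and 1 lower at 24 h. There were 2 higher without 24 h replicate 3 or 6 h replicate 1 or 2, and 2 lower with upper-quartile scaling. The part of shoot-type cells in the results below was not tested.

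STZ (AT1G27730, chromosome 1, positions 9648021 to 9649323 of TAIR10.1) was looked at first, since its level tests the labels. STZ had 11844, 12559 and 9578 CPM at 24 h, against 1277, 1014 and 1253 CPM at 6 h and 18.8, 22.9 and 29.8 CPM in mock. The 24 h libraries were far above the 6 h libraries (log2 change 3.26 ± 0.18 (SE), adjusted p = 4.27e-08, 9.59-fold). STZ took 1.16%, 1.17% and 0.964% of all counted reads at 24 h, against 0.129%, 0.0989% and 0.128% at 6 h. The counts do not separate the transgene from the native gene.

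Calls required a change of at least 1.5-fold and an adjusted p (Benjamini-Hochberg) under 0.01 from the quasi-likelihood test of edgeR. Between 24 h and 6 h, 4979 of 20272 tested genes were called (24.6%). Of these, 2853 were higher at 24 h (14.1% of the tested genes) and 2126 were lower (10.5%). The counts of called list members below are to be read against these shares. The 24 h and 6 h libraries did not overlap in 12254 of the 20272 tested genes, and overlapped in 15 of the called genes. The higher calls reached much larger changes than the lower calls. Changes of at least 4-fold were found for 640 higher and 185 lower genes, and changes of at least 16-fold for 274 higher and 12 lower genes. The median log2 change of all tested genes was −0.02, and values written as a number ± another are log2 changes (24 h minus 6 h) with their standard error (SE). With upper-quartile scaling, which moved all changes by −0.10, 2287 genes were higher and 2842 lower, so that the share of higher calls was 44.6% in place of 57.3%, and with total counts alone it was 51.6%. A test against a 1.5-fold change (glmTreat) called 1473 higher and 866 lower. Over the fits that left out 1 of the 9 libraries, 2265 higher and 1519 lower genes kept their call in every one.

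**Figure D1:**
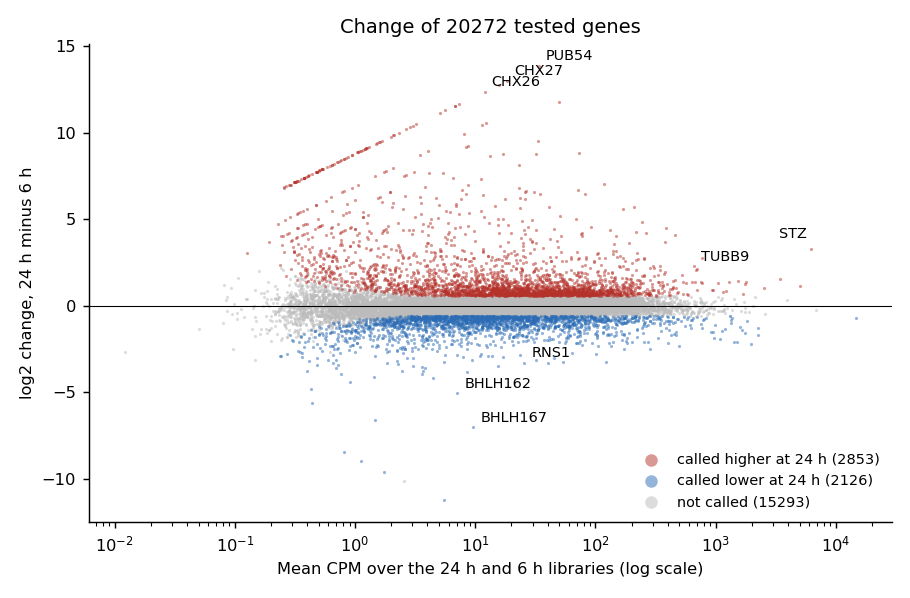
Log2 change (24 h minus 6 h) of each tested gene against its mean CPM over the 24 h and 6 h libraries on a log axis, with 2853 genes called higher in red, 2126 called lower in blue and the others in grey. The straight upper edge is formed by genes with no reads at 6 h, whose fitted change depends on the prior count, and below 0 there are far fewer genes beyond a change of 4.

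The largest rises were in genes that had almost no reads at 6 h or in mock. In all, 140 genes had 3 or fewer reads over the 6 h libraries and at least 50 reads over the 24 h libraries, and 8 genes showed the reverse. PUB54 (AT1G01680), a plant U-box protein of the ubiquitin ligase type, had 104, 73.2 and 25.3 CPM at 24 h, against 0 CPM in each library at 6 h. Its 5283 reads at 24 h against 0 at 6 h put it at least 1886-fold higher, with a floor of 3 reads over the group. Replicate 3 had the lowest PUB54 level of the 24 h libraries. The cation/proton exchanger genes CHX27 (AT5G01690) and CHX26 (AT5G01680) are neighbours on chromosome 5 that point away from each other, with 665 bases between them. CHX27 had 45.3, 37.3 and 27.8 CPM at 24 h, against 0 CPM in each library at 6 h, and was at least 1019-fold higher. CHX26 had 31.4, 22.2 and 18.1 CPM at 24 h, against 0 CPM in each library at 6 h, and was at least 665-fold higher. Both were also at or near 0 in mock, with 2 and 0 reads over its 3 libraries.

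LCAT1 (AT1G27480), of the alpha/beta-hydrolase superfamily, had 121, 90.7 and 85.6 CPM at 24 h, against 0.0372, 0 and 0.0352 CPM at 6 h. Its 7703 reads at 24 h against 2 at 6 h correspond to a ratio of 4125 (95% exact interval for counting error, 1141 to 34065). AED1 (AT5G10760), a secreted aspartyl protease, had 1919 reads at 24 h against 1 at 6 h (ratio 2055, interval 368 to 81215). PER28 (AT3G03670), a class III peroxidase, had 1714 reads at 24 h against 1 at 6 h (ratio 1836, interval 329 to 72544). These intervals cover counting error only. Further genes of this kind were the sugar transporter STP2 (AT1G07340), the efflux carrier DTX4 (AT2G04070), the pollen receptor kinase PRK5 (AT1G50610) and the protein kinase gene LIP2_2 (AT3G02810). STP2 had 16.5, 12 and 12.1 CPM at 24 h, against 0 CPM in each library at 6 h. DTX4 had 46.2, 36.4 and 18.4 CPM at 24 h, against 0.0372, 0.0736 and 0.106 CPM at 6 h, and PRK5 had 33.3, 23.5 and 22.5 CPM at 24 h, against 0.0372, 0.0368 and 0.106 CPM at 6 h. Mock was at most 0.0736 CPM in all 10 of the largest rises.

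**Figure D2:**
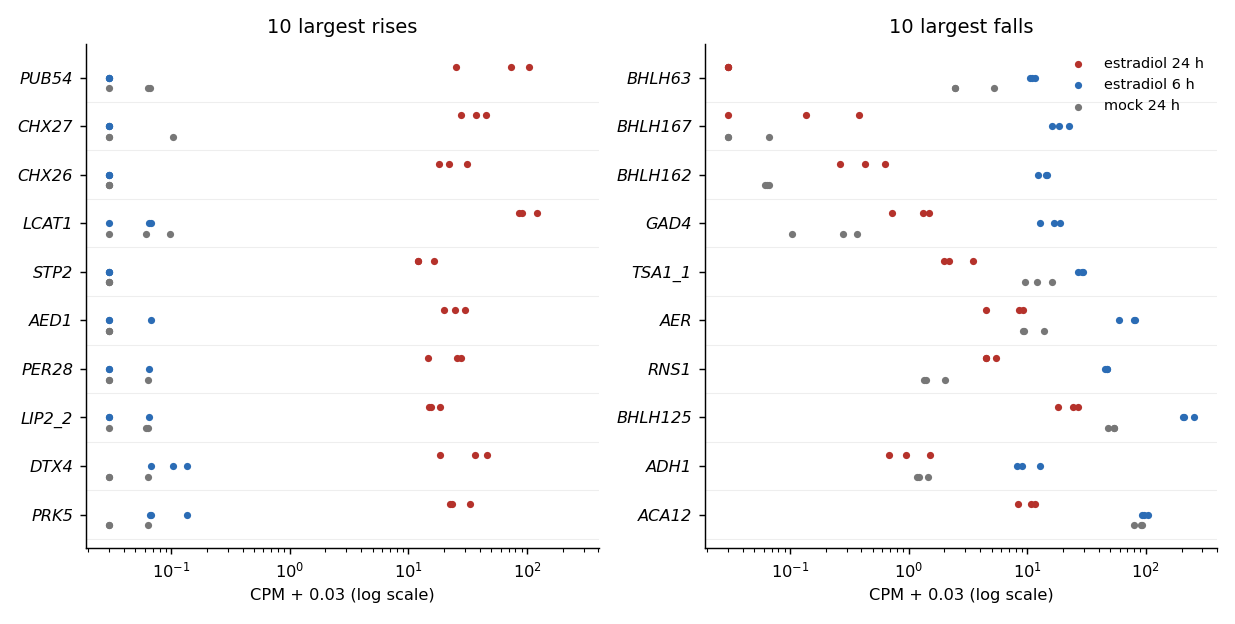
CPM + 0.03 on a log axis in each library for the 10 largest rises (left) and 10 largest falls (right) between 24 h and 6 h, with 24 h in red, 6 h in blue and mock in grey. The rising genes lie near the axis origin at 6 h and in mock, whereas most falling genes have 6 h values above mock.

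The 200 bases before the annotated start are shown for genes that changed most and for ZAT6, a close relative of STZ that fell, because STZ-type zinc fingers are known to bind short repeats with an AGT core. Capitals mark AGT and its reverse complement ACT. Each stretch is written from the RefSeq TAIR10.1 sequence on the strand of its gene, and none overlaps another annotated gene.
CHX26 (chr5:256641-256840, minus strand): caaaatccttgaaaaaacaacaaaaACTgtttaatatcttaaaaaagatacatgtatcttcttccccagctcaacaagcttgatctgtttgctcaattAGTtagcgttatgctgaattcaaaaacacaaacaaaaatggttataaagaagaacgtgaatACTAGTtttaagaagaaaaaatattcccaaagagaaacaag
CHX27 (chr5:257106-257305, plus strand): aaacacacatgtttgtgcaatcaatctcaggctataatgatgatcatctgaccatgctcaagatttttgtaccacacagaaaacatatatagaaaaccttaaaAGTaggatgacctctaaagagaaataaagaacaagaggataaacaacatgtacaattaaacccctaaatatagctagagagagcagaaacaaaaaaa
PUB54 (chr1:248441-248640, minus strand): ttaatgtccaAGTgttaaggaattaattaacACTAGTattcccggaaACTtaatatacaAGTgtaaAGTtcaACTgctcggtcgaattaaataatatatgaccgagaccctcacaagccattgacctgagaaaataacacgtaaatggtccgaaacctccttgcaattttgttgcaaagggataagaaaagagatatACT
BHLH167 (chr1:3495245-3495444, minus strand): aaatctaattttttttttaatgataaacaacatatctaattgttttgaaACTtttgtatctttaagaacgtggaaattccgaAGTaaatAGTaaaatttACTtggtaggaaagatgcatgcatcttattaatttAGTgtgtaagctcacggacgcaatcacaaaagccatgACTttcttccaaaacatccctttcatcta
BHLH162 (chr4:11214912-11215111, plus strand): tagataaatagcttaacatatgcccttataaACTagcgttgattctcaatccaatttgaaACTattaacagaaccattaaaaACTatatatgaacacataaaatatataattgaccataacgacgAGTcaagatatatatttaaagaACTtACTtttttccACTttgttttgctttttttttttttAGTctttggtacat
ZAT6 (chr5:1217363-1217562, minus strand): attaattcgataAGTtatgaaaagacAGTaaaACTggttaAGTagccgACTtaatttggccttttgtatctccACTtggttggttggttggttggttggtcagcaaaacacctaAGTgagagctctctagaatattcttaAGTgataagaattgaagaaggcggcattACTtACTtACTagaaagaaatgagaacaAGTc
AGT on either strand was found 4 times before CHX26, 1 time before CHX27, 8 times before PUB54, 6 times before BHLH167, 8 times before BHLH162 and 12 times before ZAT6. Over the same window of 27443 protein-coding genes the median was 6 and 99.8% of genes had at least 1. ZAT6 lay above the 90th percentile of 9 and CHX27 below the 10th percentile of 3. The WRKY-type core TTGAC was found 1 time before PUB54 and 2 times before BHLH162 (38.7% of all windows had it), and the G-box CACGTG was found in none of the 6 (5.64% of all windows). A TTGAC followed by T shares its last bases with an ACT.

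Among the largest falls were regulators and stress genes that had been higher at 6 h than in mock. BHLH167 (AT1G10585), a basic helix-loop-helix transcription factor, had 0.105, 0.353 and 0 CPM at 24 h, against 18.6, 22.3 and 16.1 CPM at 6 h, with 0 to 0.0368 CPM in mock (log2 change −7.01 ± 0.36 (SE), adjusted p = 2.97e-08). BHLH162 (AT4G20970), of the same family, had 0.597, 0.397 and 0.233 CPM at 24 h, against 14.3, 14.8 and 12.3 CPM at 6 h, with 0.0315 to 0.0368 CPM in mock (log2 change −5.04 ± 0.21 (SE), adjusted p = 5.63e-09). BHLH125 (AT1G62975) had 18, 24.5 and 26.7 CPM at 24 h, against 208, 255 and 206 CPM at 6 h, with 48 to 54.2 CPM in mock (−3.28 ± 0.14). All 3 were thus present at 6 h and low at 24 h, and BHLH125 was lower at 24 h than in any mock library. RNS1 (AT2G02990), a secreted ribonuclease induced by wounding and phosphate shortage, had 4.49, 5.43 and 4.42 CPM at 24 h, against 47, 47 and 45.6 CPM at 6 h (log2 change −3.29 ± 0.12 (SE), adjusted p = 2.01e-09). GAD4 (AT2G02010), a glutamate decarboxylase that makes GABA, had 1.3, 1.46 and 0.698 CPM at 24 h, against 18.8, 16.6 and 12.8 CPM at 6 h (−3.81 ± 0.25). RNS1 and GAD4 had 24 h values between those of mock and 6 h, with 1.32 to 1.98 CPM in mock for RNS1 and 0.0736 to 0.34 CPM in mock for GAD4.

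Other large falls had a different level in mock. ACA12 (AT3G63380), an autoinhibited calcium pump, had 8.35, 11.5 and 10.8 CPM at 24 h, against 96.6, 103 and 92 CPM at 6 h, with 80.1 to 92.8 CPM in mock (log2 change −3.26 ± 0.11 (SE), adjusted p = 1.62e-09). ACA12 was thus near its mock level at 6 h and low at 24 h. The alkenal reductase gene AER (AT5G16970), whose product detoxifies reactive aldehydes, had 8.53, 9.18 and 4.46 CPM at 24 h, against 79, 81.2 and 59 CPM at 6 h (−3.31 ± 0.23). TSA1_1 (AT1G52410), a TSK-associating protein, had 2.14, 1.94 and 3.49 CPM at 24 h, against 27, 29.1 and 29.7 CPM at 6 h (−3.49 ± 0.22). BHLH63 (AT4G34530) was the largest fall by its count, with 0 CPM in each library at 24 h, against 10.4, 10.9 and 11.6 CPM at 6 h, but none of its reads mapped uniquely. In TAIR10.1 it lies entirely within the exons of PLR3 on the same strand, which had 508 to 616 reads at 24 h and 577 to 731 reads at 6 h, and PLR3 was not called. The BHLH63 value is therefore uncertain.

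In the family of STZ falls outnumbered rises. Of 10 tested C2H2 zinc finger and related genes, 5 fell and 2 rose, STZ being 1 of the rises, with a median log2 change of −0.58. ZAT6 (AT5G04340) had 6.04, 8.25 and 7.18 CPM at 24 h, against 32.1, 37.5 and 33.2 CPM at 6 h, with 37.5 to 48.2 CPM in mock (log2 change −2.27 ± 0.13 (SE), adjusted p = 5.73e-08). ZAT11 (AT2G37430) had 4.49, 5.87 and 4.93 CPM at 24 h, against 14.2, 15.1 and 14.3 CPM at 6 h (log2 change −1.52 ± 0.13 (SE), adjusted p = 2.21e-06). Falls were also called for ZAT5 (AT2G28200, −1.07 ± 0.11) and AZF1 (AT5G67450, −1.05 ± 0.12), which are EAR-type repressors like STZ. The other rise was CZF1 (AT2G40140), a CCCH-type stress-response gene, with 187, 203 and 173 CPM at 24 h, against 97.8, 104 and 102 CPM at 6 h (0.89 ± 0.08). The number of falls was 4 to 6 over the fits that left out 1 library.

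Genes of indole defence metabolism were mostly lower at 24 h. Tryptophan is converted by CYP79B2 and CYP79B3 to indole-3-acetaldoxime, the branch point to indole glucosinolates and camalexin. Of 20 tested genes of this pathway 13 fell and 1 rose, with a median of −1.03, and 13 to 14 fell in each fit that left out 1 library. CYP79B3 (AT2G22330) had 53.4, 42.2 and 61.6 CPM at 24 h, against 311, 242 and 327 CPM at 6 h (log2 change −2.48 ± 0.14 (SE), adjusted p = 5.95e-08). CYP79B2 (AT4G39950) had 72.1, 61.9 and 78.3 CPM at 24 h, against 319, 249 and 304 CPM at 6 h (log2 change −2.04 ± 0.11 (SE), adjusted p = 4.96e-08). The 24 h libraries of both were below all mock libraries, which had 214 to 230.4 CPM of CYP79B3 and 114 to 131 CPM of CYP79B2. MYB34 (AT5G60890), a transcription activator of indole glucosinolate genes, had 31.2, 34.7 and 41.7 CPM at 24 h, against 111, 115 and 114 CPM at 6 h, with 116 to 122 CPM in mock (log2 change −1.66 ± 0.09 (SE), adjusted p = 5.47e-08). Upstream, the tryptophan enzymes fell too, with the anthranilate synthase gene ASA1 (AT5G05730) at −1.43 ± 0.07 and the tryptophan synthase gene TSA1 (AT3G54640) at −1.57 ± 0.08. ASA1 had 30.3, 27.6 and 27.2 CPM at 24 h, against 81.3, 76.3 and 71.5 CPM at 6 h, with 30.8 to 33.2 CPM in mock. The rise was CYP82C2 (AT4G31970), which hydroxylates indole defence compounds, with 63.4, 59.7 and 23 CPM at 24 h, against 2.57, 2.83 and 2.93 CPM at 6 h (log2 change 4.13 ± 0.34 (SE), adjusted p = 1.38e-06). Replicate 3 had the lowest CYP82C2 level at 24 h and was still above all 6 h libraries.

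Genes of pattern-triggered immunity, the response to microbial and damage signals sensed at the cell surface, went lower more often than higher. Of 32 tested, 10 fell and 3 rose (median −0.29). The flagellin receptor gene FLS2 (AT5G46330) had 0.386, 0.265 and 0.543 CPM at 24 h, against 4.02, 4.31 and 4.16 CPM at 6 h, with 0.81 to 1.35 CPM in mock (log2 change −3.36 ± 0.26 (SE), adjusted p = 7.46e-07). FRK1 (AT2G19190), which codes for a receptor kinase and marks early immune responses, had 4.28, 3.75 and 2.25 CPM at 24 h, against 14.6, 17 and 13.6 CPM at 6 h, with 2.61 to 3.2 CPM in mock (log2 change −2.13 ± 0.19 (SE), adjusted p = 1.99e-06). Both were thus highest at 6 h, and at 24 h FLS2 lay below mock while FRK1 overlapped with it. The receptor-associated kinase gene BIK1 (AT2G39660) changed by −0.91 ± 0.08, the NADPH oxidase gene RBOHD (AT5G47910) by −0.79 ± 0.08 and MYB51 (AT1G18570), another activator of indole glucosinolates, by −1.24 ± 0.10. BIK1 had 36.2 to 45.8 CPM at 24 h and 74.2 to 81.2 CPM at 6 h, with 42.4 to 44.4 CPM in mock. The rises included PUB22 (AT3G52450), a U-box ligase that dampens immune signalling, with 296, 299 and 222 CPM at 24 h, against 93.3, 98.8 and 87.5 CPM at 6 h (log2 change 1.55 ± 0.11 (SE), adjusted p = 3e-07). The chitin receptor gene CERK1 (AT3G21630) rose as well (0.82 ± 0.08).

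Jasmonate genes also fell more often than they rose. Of 27 tested, 10 fell and 2 rose (median −0.42), and the count of rises was 1 without 24 h replicate 2 or 6 h replicate 1, with upper-quartile scaling or with total counts alone. VSP1 (AT5G24780), a storage protein gene switched on by jasmonate, had 8.95, 10.3 and 10.6 CPM at 24 h, against 75.7, 74.2 and 90.2 CPM at 6 h, with 30.0 to 43.2 CPM in mock (log2 change −3.01 ± 0.14 (SE), adjusted p = 1.32e-08). Its paralog VSP2 (AT5G24770) had 0.246, 0.75 and 0.737 CPM at 24 h, against 6.63, 4.45 and 9.02 CPM at 6 h (−3.57 ± 0.38). Both were lower at 24 h than in mock. Biosynthetic genes were among the falls, with the lipoxygenase gene LOX6 (AT1G67560) at −1.14 ± 0.08 and the reductase gene OPR3 (AT2G06050) at −0.89 ± 0.06. CYP94B1 (AT5G63450), which inactivates jasmonoyl-isoleucine, changed by −1.95 ± 0.20. DALL3 (AT2G30550), a plastid lipase gene, rose, with 88.8, 85.8 and 63.8 CPM at 24 h, against 32.5, 39.6 and 36.9 CPM at 6 h (log2 change 1.13 ± 0.12 (SE), adjusted p = 1.31e-05). Of 13 tested salicylic acid genes 2 fell and none rose, 1 fell in each fit without 1 library except that without mock replicate 1, and the fall of SAG101 (AT5G14930, −0.76 ± 0.12), a partner of the immune regulator EDS1, was kept in all of them.

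**Figure D3:**
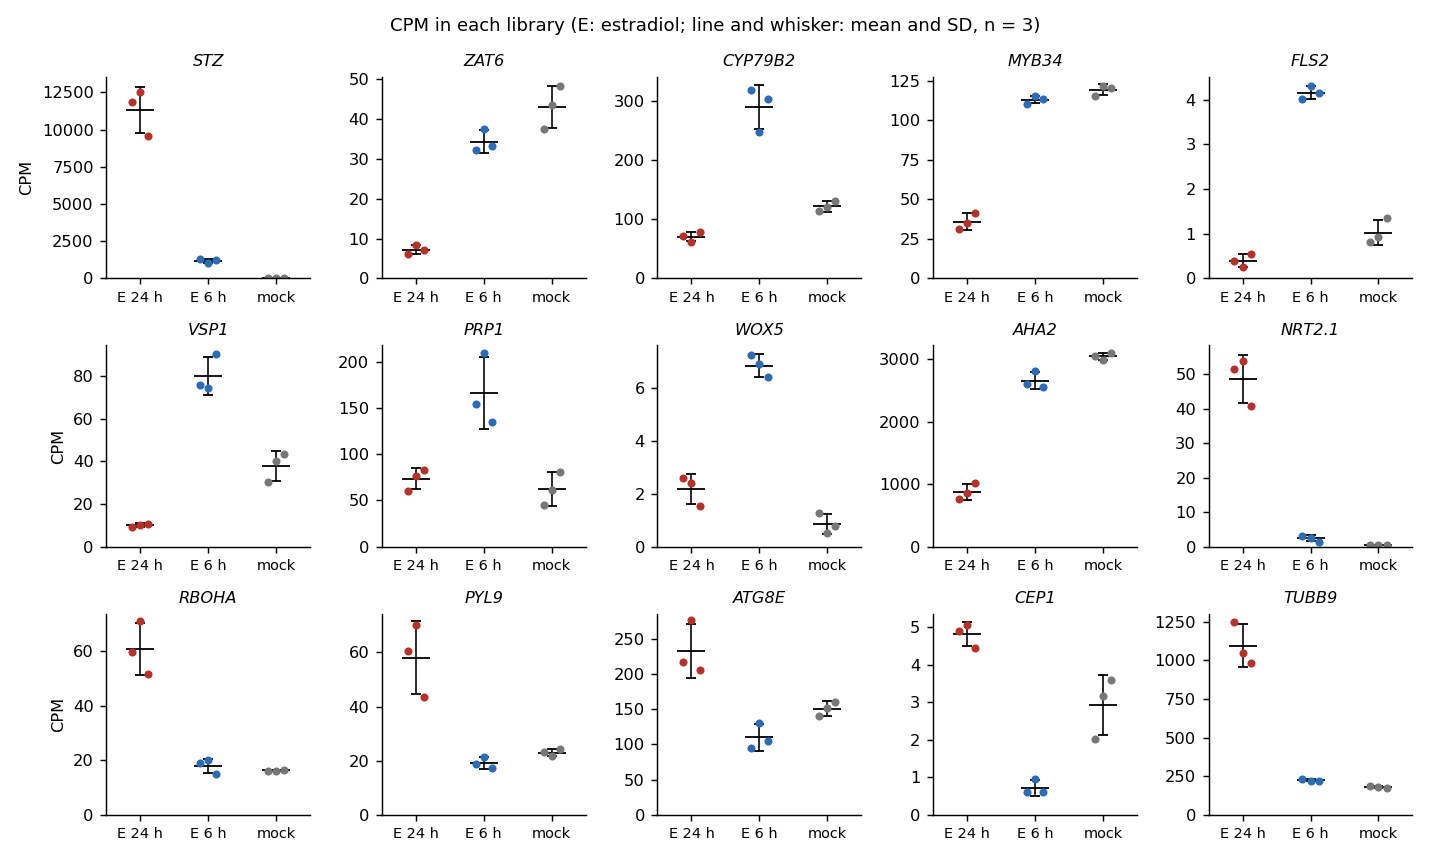
CPM of 15 genes in each library, with estradiol 24 h left of estradiol 6 h and mock at the right, and the mean and SD of each group of 3 as a line and whisker. ZAT6, MYB34 and AHA2 lie lowest at 24 h with 6 h nearer to mock, VSP1, FLS2, PRP1 and WOX5 peak at 6 h, and NRT2.1, RBOHA, PYL9, ATG8E, CEP1 and TUBB9 are highest at 24 h.

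Of the hormone lists, auxin had the most falls. Of 41 tested, 16 fell and 4 rose (median −0.46). The influx carrier gene AUX1 (AT2G38120) had 92, 94.1 and 106 CPM at 24 h, against 210.0, 198 and 189.5 CPM at 6 h, with 118 to 119.7 CPM in mock (log2 change −1.03 ± 0.07 (SE), adjusted p = 3.51e-07). Its relative LAX3 (AT1G77690) had 35.6 to 41.8 CPM at 24 h and 67 to 75.5 CPM at 6 h (−0.88 ± 0.08). The Aux/IAA repressor genes IAA14 (AT4G14550) and IAA3 (AT1G04240) changed by −1.10 ± 0.09 and −1.49 ± 0.17, IAA3 sharing 41.5% of its length with an antisense gene, whereas IAA7 (AT3G23050) rose by 0.62 ± 0.06, a call that was lost with upper-quartile scaling or total counts alone. LBD16 (AT2G42430), which starts lateral root formation, had 4.28, 5.16 and 3.96 CPM at 24 h, against 11.3, 11.4 and 12.3 CPM at 6 h, with 5.7 to 7.37 CPM in mock (log2 change −1.39 ± 0.13 (SE), adjusted p = 3.44e-06). The efflux carrier gene PIN7 (AT1G23080) fell, with 25 to 34.3 CPM at 24 h and 49.3 to 57.3 CPM at 6 h (−0.87 ± 0.10). The kinase gene PID (AT2G34650), which directs PIN proteins in the membrane, rose (0.96 ± 0.14).

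Ethylene, abscisic acid and cytokinin genes moved in both directions. Of 21 ethylene genes 6 rose and 3 fell, and 5 fell without 24 h replicate 3. With upper-quartile scaling 6 ethylene genes rose and 6 fell. The central transcription factor gene EIN3 (AT3G20770) rose (0.73 ± 0.07), as did EBF1 (AT2G25490, 0.70 ± 0.07) and EBF2 (AT5G25350, 1.13 ± 0.08), whose products direct EIN3 to degradation. EBF2 had 469.6, 549 and 478 CPM at 24 h, against 215, 238 and 231 CPM at 6 h, with 207 to 229 CPM in mock. ACS8 (AT4G37770), an ACC synthase of ethylene synthesis, had 0.561, 0.53 and 0.388 CPM at 24 h, against 3.35, 3.64 and 2.57 CPM at 6 h (log2 change −2.68 ± 0.27 (SE), adjusted p = 5.61e-06). ACS8 was thus lower at 24 h but still above its mock level of 0.11 to 0.272 CPM.

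Of 39 tested genes of abscisic acid and dehydration, 9 rose and 9 fell. The receptor genes PYL5 (AT5G05440), PYL6 (AT2G40330) and PYL9 (AT1G01360) rose by 1.26 ± 0.11, 1.17 ± 0.10 and 1.61 ± 0.15, and the phosphatase genes HAB1 (AT1G72770) and HAB2 (AT1G17550), whose products those receptors inhibit, rose by 0.85 ± 0.06 and 0.84 ± 0.06. PYL9 had 60.5, 70.3 and 43.6 CPM at 24 h, against 18.6, 21.5 and 17.1 CPM at 6 h, with 21.9 to 24.1 CPM in mock. The kinase gene OST1 (AT4G33950), which the phosphatases hold inactive, fell, with 4.95, 5.34 and 4.5 CPM at 24 h, against 11.2, 11.9 and 10.8 CPM at 6 h (log2 change −1.20 ± 0.10 (SE), adjusted p = 1.27e-06). The receptor gene PYL1 (AT5G46790), chosen after its values were seen, fell too (−0.68 ± 0.08). KIN2 (AT5G15970), a cold- and dehydration-responsive gene, had 76.7, 91.4 and 85.4 CPM at 24 h, against 504, 472 and 473 CPM at 6 h, with 90.6 to 106 CPM in mock (log2 change −2.52 ± 0.09 (SE), adjusted p = 1.8e-09). Its neighbour and close paralog KIN1 (AT5G15960) had 64.8, 43.6 and 24.2 CPM at 24 h, against 261, 202 and 211 CPM at 6 h (−2.34 ± 0.27). Of 21 cytokinin genes 4 rose and 2 fell (28.6% called, against 24.6% of all tested genes). There were 4 falls without 24 h replicate 3, and 3 rises and 4 falls with upper-quartile scaling. The receptor gene AHK3 (AT1G27320) had 340.4, 335 and 315 CPM at 24 h, against 132, 154 and 136 CPM at 6 h (log2 change 1.23 ± 0.07 (SE), adjusted p = 1.13e-07). The cytokinin synthesis genes moved apart, with IPT5 (AT5G19040) at 1.03 ± 0.11 and IPT3 (AT3G63110) at −1.30 ± 0.12. Of 24 gibberellin and brassinosteroid genes 2 rose and 2 fell, with 1 rise without 24 h replicate 1 or 2 or 6 h replicate 1 or 3, no fall without 6 h replicate 1, and 1 fall without 24 h replicate 1 or 3, 6 h replicate 2 or 3, or mock replicate 2. With upper-quartile scaling 1 of them rose and 4 fell, and with total counts alone 1 rose and 3 fell. The gibberellin receptor gene GID1B (AT3G63010) rose (1.07 ± 0.11).

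Nitrogen and iron uptake were among the processes with large changes in single genes. Of 26 tested genes of nitrate and ammonium use, 5 rose and 8 fell. NRT2.1 (AT1G08090), the main high-affinity nitrate transporter of roots, had 51.4, 53.9 and 40.8 CPM at 24 h, against 3.16, 2.47 and 1.45 CPM at 6 h, with 0.34 to 0.589 CPM in mock (log2 change 4.37 ± 0.20 (SE), adjusted p = 1.32e-08). The adjacent paralog NRT2.2 (AT1G08100) had 0.491, 0.53 and 0.504 CPM at 24 h, against 0, 0.0368 and 0 CPM at 6 h (adjusted p = 0.000255). Both nitrate reductase genes fell, NIA2 (AT1G37130) with 257, 238 and 223 CPM at 24 h, against 725, 695 and 664 CPM at 6 h (log2 change −1.54 ± 0.08 (SE), adjusted p = 2.21e-08) and NIA1 (AT1G77760) by −1.69 ± 0.12 on the log2 scale. The ammonium transporter gene AMT1;3 (AT3G24300) changed by −1.76 ± 0.11, the glutamine synthetase gene GLN1;2 (AT1G66200) by −1.85 ± 0.11 and the glutamate synthase gene GLT1 (AT5G53460) by −1.02 ± 0.09.

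Of 24 tested iron genes 8 fell and 1 rose (median −0.39). AHA2 (AT4G30190), the main proton pump of the root plasma membrane, had 760.2, 855 and 1013 CPM at 24 h, against 2599, 2814 and 2564 CPM at 6 h, with 2995 to 3107 CPM in mock (log2 change −1.60 ± 0.11 (SE), adjusted p = 2.58e-07). OPT3 (AT4G16370), a phloem transporter in iron signalling, had 3.93, 3.31 and 4.93 CPM at 24 h, against 25.6, 16.3 and 21 CPM at 6 h (log2 change −2.37 ± 0.17 (SE), adjusted p = 5.09e-07). F6'H1 (AT3G13610), the enzyme for iron-mobilizing coumarins, changed by −0.91 ± 0.09. The rise was CYP82C4 (AT4G31940), a coumarin oxidase, with 1.72, 0.883 and 1.75 CPM at 24 h, against 0.149, 0 and 0.0705 CPM at 6 h, which limma-voom did not call. CYP82C4 had 6.32 to 16.4 CPM in mock, above both. Of 19 phosphate genes 5 rose and 3 fell, with 3 rises without 24 h replicate 1, and 3 rises and 4 falls with upper-quartile scaling. The sensor gene SPX1 (AT5G20150) rose (0.91 ± 0.09) and the phosphate exporter homolog PHO1;H1 (AT1G68740) fell (−1.68 ± 0.15).

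Root hair genes fell or were not called, and none rose. Of 21 tested, 11 fell, none rose and all 21 had a negative log2 change (median −0.70). The falls numbered 8 to 14 over the fits that left out 1 library, and 1 in the test against a 1.5-fold change. PRP1 (AT1G54970), a proline-rich wall protein of root hairs, had 60.6, 76.6 and 83.2 CPM at 24 h, against 154, 209.8 and 135 CPM at 6 h, with 45 to 81 CPM in mock (log2 change −1.18 ± 0.20 (SE), adjusted p = 0.000419). LRX2 (AT1G62440), a leucine-rich repeat extensin, had 19.2, 19.3 and 23.2 CPM at 24 h, against 39.6, 46.7 and 34.2 CPM at 6 h, with 19.7 to 21.8 CPM in mock (log2 change −0.97 ± 0.11 (SE), adjusted p = 2.32e-05). EXPA18 (AT1G62980), a root hair expansin, had 49.8, 61.8 and 61.5 CPM at 24 h, against 87.3, 133 and 93.5 CPM at 6 h, with 51.5 to 60.8 CPM in mock (−0.86 ± 0.14). The 24 h values of these genes were close to mock and the 6 h values were the ones that stood out, with 6 h replicate 2 highest for each. The summed level of the list was 1128 to 1480.1 CPM at 24 h, 1904 to 2804 CPM at 6 h and 1158 to 1457 CPM in mock. In bulk tissue, fewer cells of a type and less RNA per cell cannot be told apart.

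**Figure D4:**
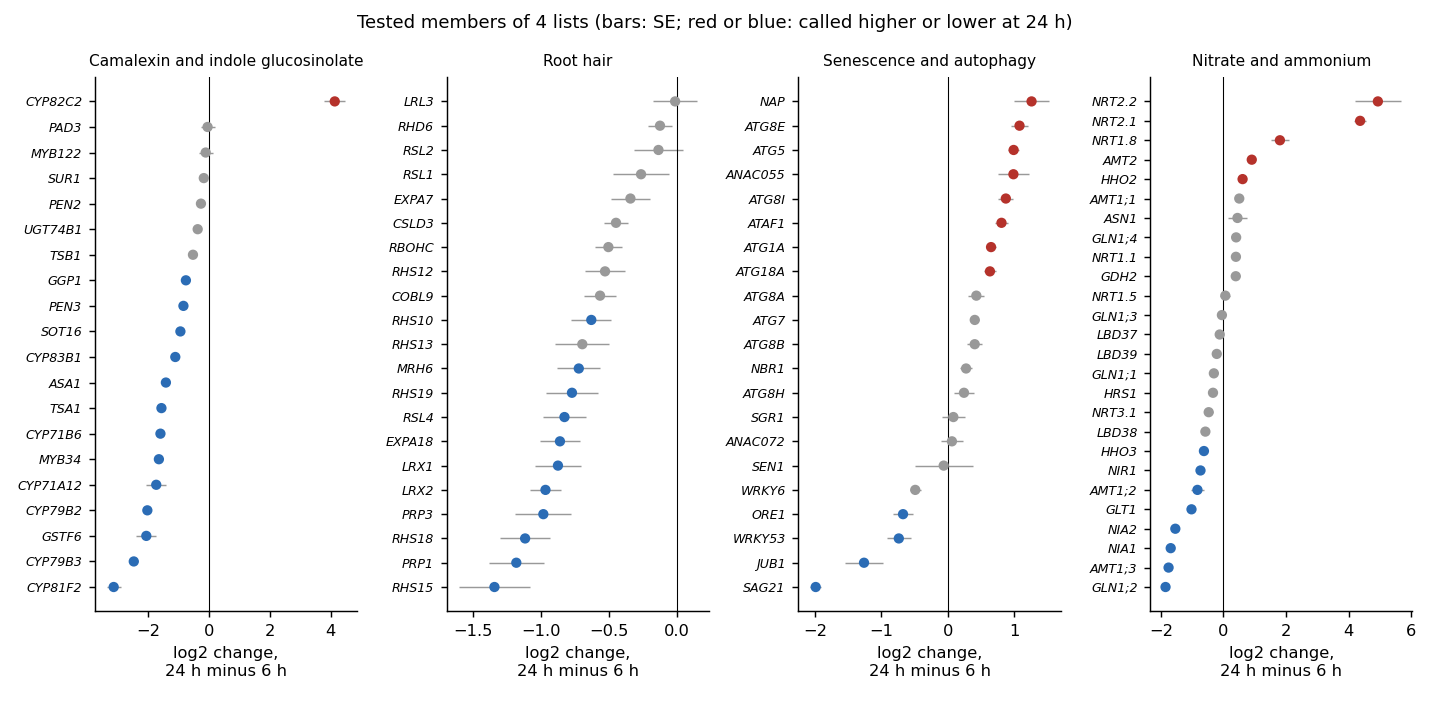
Log2 change (24 h minus 6 h) with its SE for each tested member of the indole, root hair, autophagy and nitrogen lists, with called rises in red, called falls in blue and members not called in grey. All 21 root hair genes and 19 of 20 indole genes lie left of 0, whereas the other lists spread to both sides.

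Suberin, the lipid barrier of the endodermis, had 8 falls and 1 rise among 19 genes (median −0.41). LACS2 (AT1G49430), an acyl-CoA synthetase, had 22.6, 32.5 and 30.2 CPM at 24 h, against 67.9, 65 and 57.6 CPM at 6 h, with 77.7 to 87.8 CPM in mock (log2 change −1.16 ± 0.12 (SE), adjusted p = 6.3e-06). CYP86B1 (AT5G23190), which hydroxylates very-long-chain fatty acids, changed by −1.15 ± 0.12, the exporter gene ABCG20 (AT3G53510) by −0.88 ± 0.12 and the regulator gene MYB53 (AT5G65230) by −1.22 ± 0.18. The rise was FAR1 (AT5G22500), a fatty acid reductase that makes suberin alcohols, with 47.5, 39.8 and 21.1 CPM at 24 h, against 7.89, 8.87 and 6.87 CPM at 6 h, and 6.93 to 8.36 CPM in mock (adjusted p = 1.27e-05). FAR1 shares 34.4% of its length with an antisense gene that had no reads in any library. Of 11 Casparian strip genes none fell and 1 rose, with no rise without 24 h replicate 2 or 6 h replicate 1 or 3, and 2 rises without 24 h replicate 3 or 6 h replicate 2. Of 9 non-hair epidermis genes 1 rose and none fell, and that rise was lost with upper-quartile scaling and in each fit that left out 1 library except that without 24 h replicate 3, where 1 gene fell.

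Of 28 phloem and procambium genes 7 fell and 3 rose (median −0.28). ATHB8 (AT4G32880), the homeobox gene of procambium cells, had 21.8, 24.1 and 24.7 CPM at 24 h, against 59, 59.1 and 54.1 CPM at 6 h, with 42.6 to 43.6 CPM in mock (log2 change −1.29 ± 0.07 (SE), adjusted p = 4.24e-08). The phloem regulator genes SMXL5 (AT5G57130) and CVP2 (AT1G05470) changed by −1.37 ± 0.10 and −1.35 ± 0.11. These 3 were below mock at 24 h. SWEET11 (AT3G48740), a sucrose exporter gene, rose, with 48.4, 44 and 33.9 CPM at 24 h, against 6.4, 5.56 and 11 CPM at 6 h, all 24 h values being above mock (log2 change 2.46 ± 0.26 (SE), adjusted p = 8.38e-06). Of 29 xylem and secondary wall genes 5 fell and 1 rose (20.7% called, against 24.6% of all tested genes), with 3 rises without 6 h replicate 2, and the median was 0.10, or 0.00 with upper-quartile scaling. VND6 (AT5G62380), the switch to metaxylem vessels, had 1.16, 1.15 and 1.75 CPM at 24 h, against 3.5, 3.9 and 3.28 CPM at 6 h, with 1.19 to 1.88 CPM in mock (log2 change −1.39 ± 0.22 (SE), adjusted p = 0.000191). ACL5 (AT5G19530), which makes thermospermine, a restraint on xylem formation, had 10.8, 10.2 and 12.2 CPM at 24 h, against 21.4, 25.4 and 28.4 CPM at 6 h, with 77.2 to 93.8 CPM in mock (log2 change −1.17 ± 0.12 (SE), adjusted p = 5.78e-06). FRA8 (AT2G28110), a xylan synthesis gene, rose (0.93 ± 0.16), with means of 140 CPM at 24 h, 73.7 CPM at 6 h and 129 CPM in mock. Its 6 h mean was thus below mock, and its 24 h mean was near mock.

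In the stem cell niche list of 18 genes, 2 rose and 3 fell (27.8% called, against 24.6% of all tested genes), with 5 falls without 24 h replicate 3. WOX5 (AT3G11260), the homeobox gene of the quiescent centre, had 2.6, 2.38 and 1.51 CPM at 24 h, against 7.22, 6.88 and 6.38 CPM at 6 h, with 0.51 to 1.25 CPM in mock (log2 change −1.65 ± 0.23 (SE), adjusted p = 7.73e-05). SCR (AT3G54220), which specifies the endodermis and supports the quiescent centre, had 111, 144 and 92.8 CPM at 24 h, against 56.2, 69.1 and 53.5 CPM at 6 h, with 50.2 to 52.7 CPM in mock (log2 change 0.96 ± 0.14 (SE), adjusted p = 0.000112). The 2 genes thus changed in opposite directions. Among 9 genes of the root cap list 3 fell and 1 rose, with 6 falls without 24 h replicate 3. The falls were CEL3 (AT1G71380, −1.20 ± 0.18), LBD16 and PIN7. LBD16 and PIN7 were also counted in the auxin list above, so the count does not describe the root cap alone. SMB (AT1G79580, −0.56 ± 0.23), BRN2 (AT4G10350, −0.51 ± 0.21) and FEZ (AT1G26870, 0.06 ± 0.25) of this list were not called in the main fit. The rise was the root cap NAC gene BRN1 (AT1G33280), with 17.5 to 21.7 CPM at 24 h and 8.36 to 10.8 CPM at 6 h (log2 change 1.04 ± 0.12 (SE), adjusted p = 1.92e-05).

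Few cell division genes were called. Of 37 genes in the mitotic and G2/M list 2 fell, PATL6 and MAP65-4, and none rose (5.41% called, against 24.6% of all tested genes). Of the 37, 29 were below 0, and the median was −0.33. The falls numbered 5 without 24 h replicate 3 or with upper-quartile scaling, and 1 without 24 h replicate 1 or 2 or 6 h replicate 3. PATL6 (AT3G51670), a patellin whose part in mitosis was not tested, had 23.7, 22.8 and 27.8 CPM at 24 h, against 42.1, 42.8 and 42.1 CPM at 6 h, with 50.3 to 51.5 CPM in mock (log2 change −0.77 ± 0.08 (SE), adjusted p = 4.92e-06). Of the 2 falls in this list, only that of PATL6 was kept in every fit that left out 1 library. Of 36 G1/S and replication genes 2 rose and 1 fell (8.33% called). The fall was the D-type cyclin gene CYCD1;1 (AT1G70210), with 6.42, 7.06 and 7.18 CPM at 24 h, against 14.7, 16.7 and 16.6 CPM at 6 h, and 42 to 45.2 CPM in mock (log2 change −1.22 ± 0.09 (SE), adjusted p = 4.3e-07). The rises numbered 1 without 24 h replicate 1 or 2 or 6 h replicate 2 or 3 and with upper-quartile scaling or total counts alone, and the falls 2 without 24 h replicate 3 or with upper-quartile scaling. The mitotic kinase gene CDKB2;1 (AT1G76540), which the study chose from its own results, had 18.4, 14.2 and 16.4 CPM at 24 h, against 24.8, 20.6 and 20.8 CPM at 6 h, and its change of −0.43 ± 0.11 (adjusted p = 0.00546) was under the 1.5-fold limit. The other members of that list of 5 were CYCB1;4 (AT2G26760, −0.28 ± 0.11), CYCB2;3 (AT1G20610, −0.30 ± 0.14), CYCB2;4 (AT1G76310, −0.33 ± 0.13) and MAP65-4 (AT3G60840, −0.63 ± 0.15). MAP65-4, which bundles microtubules, was called lower, but not without 24 h replicate 1 or 2 or 6 h replicate 2 or 3 (0 called members of the list).

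TUBB9 (AT4G20890), a beta-tubulin gene best known from pollen, had 1249.9, 1051 and 985 CPM at 24 h, against 230.4, 219 and 219 CPM at 6 h, with 175 to 189.6 CPM in mock (log2 change 2.30 ± 0.09 (SE), adjusted p = 5.34e-09). It was the 1 called gene of 13 tubulin genes, whose median was −0.20. Of 27 kinesin motor genes 7 fell and none rose (median −0.43), with 3 falls without 24 h replicate 2, 4 without mock replicate 2 and 1 rise without 24 h replicate 3. The share called was 25.9%, against 24.6% of all tested genes, and 10.5% of all tested genes were called lower. The linker histone list was drawn from product names and held only 2 genes, HIS1-3 (AT2G18050) and AT3G25590. Both fell, which does not describe linker histones as a class. The drought-responsive HIS1-3 had 2.53, 3.18 and 2.75 CPM at 24 h, against 9.08, 10.9 and 13.5 CPM at 6 h and 31.9 to 49.3 CPM in mock (log2 change −1.99 ± 0.21 (SE), adjusted p = 9.41e-06). Core histone genes had 6 rises and 1 fall among 45 (15.6% called), with no fall without 24 h replicate 1 or 3 or 6 h replicate 2 or 3, and the H2A gene HTA10 (AT1G51060) changed by 0.87 ± 0.08. Of 17 CDK inhibitor and endocycle genes 1 fell and none rose (5.88% called), with no fall without 24 h replicate 1, 6 h replicate 2 or mock replicate 2, and 1 rise without 24 h replicate 1 or 3. Ribosomal protein genes had 8 rises and 2 falls among 321 (3.12% called), with 5 rises without 24 h replicate 2 or with upper-quartile scaling and 1 fall without 24 h replicate 1 or 2 or 6 h replicate 1.

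Several autophagy genes rose. Of 21 genes of senescence and autophagy 8 rose and 4 fell (median 0.41), with 2 falls without 24 h replicate 1 or 6 h replicate 3. ATG8E (AT2G45170), a ubiquitin-like protein that coats autophagosomes, had 217, 277 and 205 CPM at 24 h, against 94.7, 131 and 105 CPM at 6 h, with 141 to 161 CPM in mock (log2 change 1.08 ± 0.13 (SE), adjusted p = 2.71e-05). ATG8I (AT3G15580) rose by 0.88 ± 0.11, ATG5 (AT5G17290), which helps to attach ATG8 to lipid, by 0.99 ± 0.08 and the starter kinase gene ATG1A (AT3G61960) by 0.65 ± 0.08, a call that was lost with upper-quartile scaling. ATAF1 (AT1G01720), a NAC factor of stress and senescence, had 136, 131 and 101 CPM at 24 h, against 66.5, 76.3 and 66.8 CPM at 6 h, with 62.3 to 63.5 CPM in mock (log2 change 0.81 ± 0.10 (SE), adjusted p = 3.99e-05). SAG21 (AT4G02380), a late embryogenesis-type stress gene, was the strongest fall of the list, with 34.7, 33.8 and 30.5 CPM at 24 h, against 123, 133 and 137 CPM at 6 h, and 173 to 199 CPM in mock (log2 change −1.99 ± 0.08 (SE), adjusted p = 5.22e-09).

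Genes of cell death execution and its control moved in both directions. Of 14 tested 4 rose and 2 fell (median 0.32). The rises included LSD1 (AT4G20380, 0.71 ± 0.11), a negative regulator of cell death and not an executor. CEP1 (AT5G50260), a cysteine endopeptidase of dying cells, had 4.91, 5.07 and 4.46 CPM at 24 h, against 0.596, 0.957 and 0.599 CPM at 6 h, with 2.02 to 3.59 CPM in mock (log2 change 2.74 ± 0.25 (SE), adjusted p = 3.02e-06). ANAC087 (AT5G18270), a NAC factor of root cap cell death, had 73, 77.4 and 67.2 CPM at 24 h, against 36.9, 50.7 and 36.4 CPM at 6 h, with 30.4 to 37.4 CPM in mock (log2 change 0.81 ± 0.12 (SE), adjusted p = 0.000147). The falls were RNS1, given above, and ENDO2 (AT1G68290), an endonuclease gene, with 7.47, 7.1 and 4 CPM at 24 h, against 18.7, 18.3 and 13 CPM at 6 h, and 0.252 to 0.699 CPM in mock (−1.43 ± 0.23). ENDO2 shares 99.8% of its length with an antisense non-coding gene of TAIR10.1.

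The study named 12 genes of cell death, 10 stress regulators and 5 vascular targets from its own results, so their direction is not independent evidence. Of the 12 cell death genes 7 rose and none fell (median 0.97). Besides CEP1, ANAC087 and DALL3 these were the glutaredoxin gene GRXS13 (AT1G03850, 1.42 ± 0.12), the receptor kinase gene LECRKA4.1 (AT5G01540, 1.76 ± 0.18, with 98.5% of its length shared with an antisense gene), the dehydrin gene RAB18 (AT5G66400, 1.58 ± 0.34) and the lipid transfer protein gene AT4G33550 (1.84 ± 0.15). GRXS13 had 148, 184 and 137 CPM at 24 h, against 53.3, 67.5 and 53.9 CPM at 6 h, with 86.7 to 93.6 CPM in mock. The 5 genes not called were SCPL48 (AT3G45010, −0.10 ± 0.09), RNS3 (AT1G26820, 0.18 ± 0.12), MC9 (AT5G04200, 0.05 ± 0.16), BFN1 (AT1G11190, 0.55 ± 0.14) and HSF4 (AT4G36990, 0.58 ± 0.13). SCPL48, RNS3 and MC9, which are markers of developmental cell death, had 24 h and 6 h libraries that overlapped. BFN1 was called without 24 h replicate 1 or 6 h replicate 2, and HSF4 without 24 h replicate 3, 6 h replicate 2 or mock replicate 2.

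Of the 10 stress regulators 6 rose and 2 fell (median 0.85). WRKY46 (AT2G46400), a WRKY factor of defence and drought, had 8.07, 6.49 and 2.4 CPM at 24 h, against 0.409, 0.405 and 0.141 CPM at 6 h, with 0.189 to 0.478 CPM in mock (log2 change 4.14 ± 0.50 (SE), adjusted p = 2.82e-05). WRKY25 (AT2G30250) rose by 1.01 ± 0.10 and the ethylene response factor gene ERF2 (AT5G47220) by 1.97 ± 0.23, beside CZF1 and ATAF1, and ANAC055 (AT3G15500) rose by 0.99 ± 0.24, a call lost without 24 h replicate 1 or 2 or 6 h replicate 1. MYB15 (AT3G23250), a regulator of cold and lignin responses, fell beside ZAT6, with 4.04, 3.97 and 2.4 CPM at 24 h, against 14.6, 14.3 and 11 CPM at 6 h, and 0.306 to 0.661 CPM in mock (log2 change −1.94 ± 0.20 (SE), adjusted p = 7.94e-06). ANAC062 (AT3G49530, 0.06 ± 0.09) and ERF104 (AT5G61600, −0.27 ± 0.11) were not called and overlapped between the times. Of the 5 vascular targets 3 fell, VND6, the DOF factor gene TMO6 (AT5G60200, −1.09 ± 0.11) and the DOF factor gene HCA2 (AT5G62940, −1.07 ± 0.21). MP (AT1G19850, −0.44 ± 0.13), the auxin response factor of vascular initiation, was not called, but was called lower without 24 h replicate 1, and OBP4 (AT5G60850, −0.29 ± 0.11) was not called.

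Enzymes of reactive oxygen had 6 rises and 3 falls among 19 genes, or 5 rises and 5 falls with upper-quartile scaling. The NADPH oxidase genes RBOHA (AT5G07390), RBOHB (AT1G09090) and RBOHG (AT4G25090), which make apoplastic superoxide, rose by 1.76 ± 0.12, 1.53 ± 0.21 and 1.04 ± 0.14. RBOHA had 59.5, 70.9 and 51.7 CPM at 24 h, against 18.9, 19.9 and 15.1 CPM at 6 h, with 16 to 16.5 CPM in mock (adjusted p = 3.31e-07). The defence-related oxidase gene RBOHD fell, as given above. FSD1 (AT4G25100), an iron superoxide dismutase, had 31.6, 33.3 and 30.7 CPM at 24 h, against 98.8, 98.9 and 101 CPM at 6 h, with 14.4 to 15.5 CPM in mock (log2 change −1.64 ± 0.06 (SE), adjusted p = 2.35e-09). The ascorbate-recycling gene DHAR1 (AT1G19570) fell as well (−1.65 ± 0.07). Of 61 class III peroxidase genes 15 rose and 14 fell, or 14 and 17 with upper-quartile scaling. PER25 (AT2G41480) had 69.9, 61.8 and 70.3 CPM at 24 h, against 6.89, 5.04 and 7.86 CPM at 6 h (log2 change 3.35 ± 0.16 (SE), adjusted p = 1.81e-08). PER71 (AT5G64120) had 145, 174 and 169.7 CPM at 24 h, against 806, 868 and 792 CPM at 6 h, with 933 to 1188 CPM in mock (log2 change −2.34 ± 0.11 (SE), adjusted p = 1.38e-08).

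Most of the called heat shock genes fell. Of 17 heat shock genes 9 fell and 2 rose (median −0.62), with 4 rises without 24 h replicate 3 or 6 h replicate 2. HSP17.6II (AT5G12020), a small cytosolic chaperone, had 1.09, 0.53 and 0.31 CPM at 24 h, against 5.25, 5.19 and 5.85 CPM at 6 h, with 0.0945 to 0.17 CPM in mock (log2 change −3.04 ± 0.29 (SE), adjusted p = 4.11e-06). HSP17.6C (AT1G53540) changed by −1.91 ± 0.24 and the mitochondrial HSP23.6 (AT4G25200) by −3.58 ± 0.51. The rises were the cytosolic HSP90.1 (AT5G52640), with 299, 237 and 189 CPM at 24 h, against 137, 137 and 106 CPM at 6 h (log2 change 0.93 ± 0.16 (SE), adjusted p = 0.000413), and the stress-inducible ER chaperone gene BIP3 (AT1G09080, 2.85 ± 0.48). Of 13 hypoxia genes 5 fell and 3 rose. Fermentation genes fell, with ADH1 (AT1G77120) at −3.26 ± 0.25, PDC1 (AT4G33070) at −1.78 ± 0.13 and PDC2 (AT5G54960) at −1.18 ± 0.09. ADH1 had 1.47, 0.927 and 0.659 CPM at 24 h, against 12.7, 8.98 and 8.21 CPM at 6 h, with 1.14 to 1.42 CPM in mock. PCO1 (AT5G15120), an oxygen-sensing cysteine oxidase, rose (1.54 ± 0.19).

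Transcription factor families and enzyme families of specialized metabolism held large changes in both directions. Of 57 WRKY genes 7 rose and 14 fell, and WRKY59 (AT2G21900) had 7.61, 7.68 and 3.34 CPM at 24 h, against 0, 0.0736 and 0 CPM at 6 h (adjusted p = 1.23e-06). Of 64 ERF genes 11 rose and 10 fell. ERF115 (AT5G07310), which acts in stem cell replenishment after damage, had 0.772, 0.441 and 0.233 CPM at 24 h, against 6.37, 4.64 and 5.6 CPM at 6 h, with 0.102 to 0.126 CPM in mock (log2 change −3.48 ± 0.28 (SE), adjusted p = 1.11e-06). DREB2C (AT2G40340), a drought and heat factor, had 76.8, 86.9 and 66.9 CPM at 24 h, against 22.7, 23.4 and 19.4 CPM at 6 h, with 5.45 to 6.81 CPM in mock (log2 change 1.81 ± 0.11 (SE), adjusted p = 1.05e-07). With upper-quartile scaling 7 ERF genes rose and 13 fell. Of 58 NAC genes 15 rose and 11 fell, with 7 falls without 6 h replicate 3. Of 85 MYB genes 11 rose and 14 fell (29.4% called, against 24.6% of all tested genes). MYB101 (AT2G32460), a MYB factor known from pollen tubes, had 10.6, 8.16 and 6.28 CPM at 24 h, against 0.596, 0.11 and 0.0705 CPM at 6 h (log2 change 5.01 ± 0.41 (SE), adjusted p = 1.26e-06).

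Of 145 cytochrome P450 genes 32 rose and 43 fell, of 112 UDP-glycosyltransferases 11 rose and 27 fell, and of 41 glutathione S-transferases 7 rose and 15 fell. CYP71B12 (AT5G25130) had 48.8, 56.4 and 48.1 CPM at 24 h, against 0.484, 0.81 and 0.811 CPM at 6 h, with 1.66 to 1.87 CPM in mock (log2 change 6.17 ± 0.15 (SE), adjusted p = 5.34e-10). CYP705A24 (AT1G28430) had 54.2, 54.6 and 63.2 CPM at 24 h, against 2.01, 1.47 and 2.04 CPM at 6 h, with 0 to 0.034 CPM in mock (log2 change 4.96 ± 0.13 (SE), adjusted p = 5.38e-10). Both were high at 24 h and low in the other libraries. UGT71C1 (AT2G29750), which glycosylates flavonols and other phenolics, had 416, 520.1 and 474 CPM at 24 h, against 127, 159 and 139 CPM at 6 h (log2 change 1.73 ± 0.10 (SE), adjusted p = 7.52e-08). GSTF9 (AT2G30860), an abundant root glutathione S-transferase, changed by −1.28 ± 0.08.

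Xyloglucan, expansin, extensin-type and cellulose synthase genes fell more often than they rose. Lipid transfer protein genes rose more often than they fell. Of 24 xyloglucan endotransglucosylase/hydrolase genes 7 fell and 2 rose, with 4 falls without 24 h replicate 1 or 6 h replicate 2, and 1 rise without any 1 of the 24 h replicates 1 and 2, the 6 h libraries and mock replicate 2. XTH2 (AT4G13090) had 6.11, 10.8 and 12.5 CPM at 24 h, against 0.0745, 0.294 and 0.141 CPM at 6 h (log2 change 5.81 ± 0.39 (SE), adjusted p = 2.39e-07). XTH28 (AT1G14720) had 11.8, 12.2 and 12.5 CPM at 24 h, against 36.1, 32.1 and 33.5 CPM at 6 h (log2 change −1.48 ± 0.07 (SE), adjusted p = 2.34e-08). The 2 genes thus changed in opposite directions between the times. Of 20 expansin genes 4 fell and none rose (20% called, against 24.6% of all tested genes), with 1 rise without 24 h replicate 2. Of 41 extensin-type genes 15 fell and 6 rose, with 9 falls without 6 h replicate 2. PERK4 (AT2G18470), an extensin-like receptor kinase, had 18.7, 12.8 and 11.8 CPM at 24 h, against 0.782, 0.736 and 0.317 CPM at 6 h (log2 change 4.56 ± 0.28 (SE), adjusted p = 1.1e-07). Of 57 lipid transfer protein genes 15 rose and 4 fell, with 7 falls without 24 h replicate 2 or with upper-quartile scaling. Of 20 cellulose synthase and related genes 5 fell and 2 rose, with 3 falls without 24 h replicate 2, 6 h replicate 2 or mock replicate 2, and CSLB3 (AT2G32530) changed by 2.58 ± 0.19.

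Of 23 aquaporin genes 4 fell and 1 rose (21.7% called, against 24.6% of all tested genes). There was no rise without 24 h replicate 2 or 3 or 6 h replicate 1 or 3. PIP2;5 (AT3G54820), a plasma membrane water channel, had 0.807, 1.1 and 0.698 CPM at 24 h, against 4.06, 4.23 and 2.64 CPM at 6 h, with 1.36 to 1.84 CPM in mock (log2 change −2.07 ± 0.25 (SE), adjusted p = 2.62e-05). Of 21 phenylpropanoid and flavonoid genes 3 fell and 1 rose (19.0% called), with 5 falls without 24 h replicate 2 and 6 with upper-quartile scaling. PAL2 (AT3G53260), a phenylalanine ammonia-lyase at the entry of the pathway, changed by −1.05 ± 0.10. Of 20 genes of the clock list 2 rose and 1 fell, the fall being PRR9 (AT2G46790, −1.23 ± 0.12), a morning-phased repressor. The rises included LHCB1.3 (AT1G29930, 0.82 ± 0.17), which was also the rise of the photosynthesis list. There was 1 clock rise without 24 h replicate 2 or 6 h replicate 1, and 2 falls without 24 h replicate 2 or 3 or 6 h replicate 1 or 2. With upper-quartile scaling 1 clock gene rose and 3 fell. Of 130 disease resistance receptor genes 22 rose and 29 fell, and LAZ5 (AT5G44870), a TIR-NBS-LRR resistance gene, had 1.37, 2.03 and 1.44 CPM at 24 h, against 6.92, 6 and 6.1 CPM at 6 h, with 8.09 to 9.76 CPM in mock (log2 change −1.99 ± 0.16 (SE), adjusted p = 1.22e-06). Of 9 genes often used as references 1 was called, the ubiquitin-conjugating enzyme gene UBC21 (AT5G25760), which had 59.7, 68.8 and 51.4 CPM at 24 h, against 37.1, 37.6 and 35.1 CPM at 6 h (log2 change 0.71 ± 0.09 (SE), adjusted p = 5.1e-05).

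**Figure D5:**
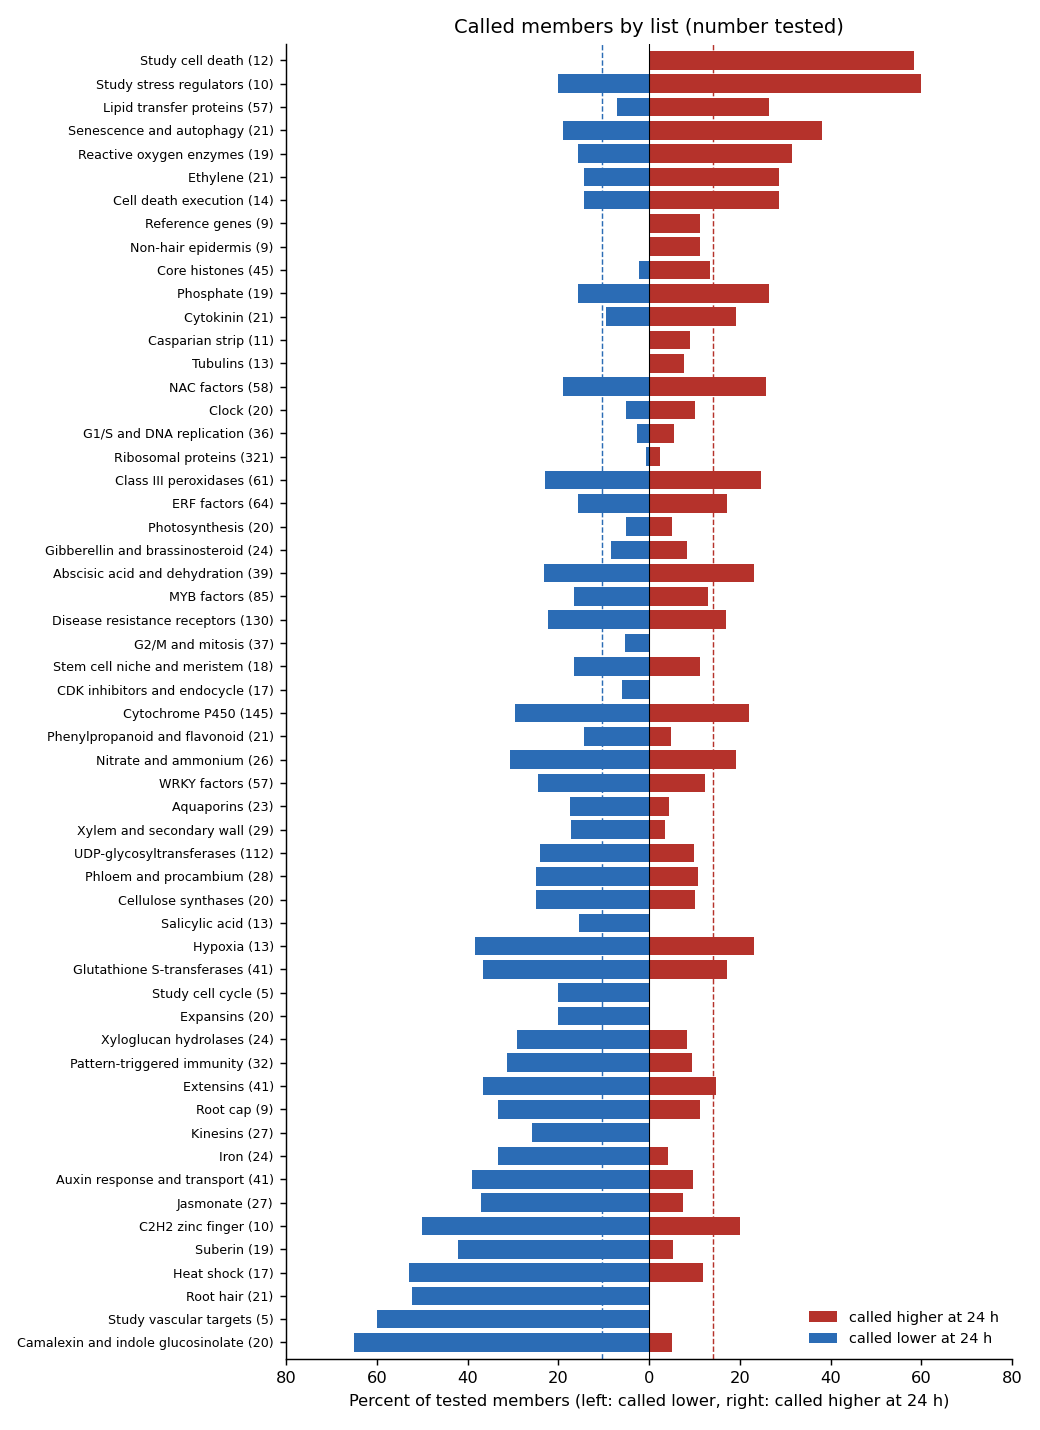
Share of the tested members of each list that was called higher (right, red) or lower (left, blue) at 24 h than at 6 h, with the number of tested members in parentheses and dashed lines at the shares over all tested genes, 14.1% higher and 10.5% lower. The linker histone list, with 2 tested members, is not drawn. The indole, heat shock, root hair and C2H2 lists extend furthest beyond the left line among the drawn lists not chosen by the study, and ribosomal protein genes stay inside both lines.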

How the data were processed

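Total RNA of roots was made into stranded mRNA libraries, and the authors trimmed the reads and used CLC Genomics Workbench to map them to TAIR10. The deposited values used here are raw counts of exon reads per gene, with 1 library per file, and whether the counting used strand was not given in the sources used here. The deposited TPM and RPKM columns were not used. Groups were taken from the labels. All 9 libraries were fitted together with edgeR 4.0.16 (R 4.3.3) after its default filter on low counts, with TMM scaling and the quasi-likelihood test of 24 h minus 6 h. Calls required a change of at least 1.5-fold and an adjusted p (Benjamini-Hochberg) under 0.01, and adjusted p-values cover all 20272 tested genes. The common biological coefficient of variation was 0.0909. Standard errors are the log2 change divided by the square root of F. Counts of replicates within a group differed by 3.04 to 22.7 in chi-square per gene, more than sampling noise, and 98.5% to 98.6% of reads were unique.

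Members and gene lists were chosen with earlier results of these data known. The text names STZ, the 10 largest rises and falls among genes that had a symbol and averaged 5 CPM or more, up to 5 called members of each gene list and 2 of each annotation list in each direction by smallest p, all called without any 1 library, all genes the study named, and up to 6 genes with at most 3 reads in 1 group. PLR3 is named because its exons hold BHLH63. Same-numbered libraries at 24 h and 6 h deviated together (correlations 0.214, 0.335 and 0.152). The labels give no shared batch, so a pairing by replicate number rests on the data alone. The main fit held no replicate block, so its p-values and standard errors do not use this pairing. Alternatives were other scalings and filters, DESeq2 1.42.0, limma-voom (limma 3.58.1), glmTreat, uniquely mapped reads, the replicate block and leaving out each library. The fit was tested on simulated data.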

Additional observations from a re-analysis of the deposited data

How the results depend on the processing

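The counts of genes higher and lower at 24 h moved by over 1.5 times under 2 alternatives. With an adjusted p under 0.05 and no fold limit, 6020 genes were higher and 5541 lower, and with glmTreat against 1.5-fold, 1473 were higher and 866 lower, both by the construction of the rule. Leaving out each library in turn gave 2494 to 3243 higher and 1835 to 2346 lower genes. Upper-quartile scaling gave 2287 higher and 2842 lower genes. With the replicate block 2884 genes were higher and 2195 lower, and with the block in a fit of the 24 h and 6 h libraries alone, an alternative chosen after seeing the data, 2940 were higher and 2073 lower. The block changed no call of the 247 named genes. Over 23 alternatives, 5602 of 5676 values of the named genes kept their direction and side of the threshold, 62 lost the call, 12 gained it and 0 reversed. The calls of HSF4 and MAP65-4 also changed when only the 24 h and 6 h libraries were fitted, and BIP3 and NRT2.2 were not tested with a filter of at least 1 CPM in 3 libraries. Uniquely mapped reads left the calls of the genes named in the text as they were apart from BHLH63, which has no such reads.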
